A study of Mus musculus with 36 samples.

Results

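Transcripts of fibroblast growth factor (FGF) receptors and ligands were compared among S100β-GFP+;NG2-dsRed+ perisynaptic Schwann cells (PSCs), S100β-GFP+ cells and NG2-dsRed+ cells of mouse skeletal muscle. The members were chosen by gene symbol and comprise 4 receptors (Fgfr1, Fgfr2, Fgfr3 and Fgfr4) and 6 ligands (Fgf1, Fgf2, Fgf5, Fgf7, Fgf10 and Fgf18), which are 10 of the 52636 genes counted. Of these, 9 were among the 15330 genes with enough counts to be tested, and Fgf5 was not.

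Cells were sorted by FACS from the diaphragm, pectoralis, forelimb and hindlimb muscles of untreated S100β-GFP;NG2-dsRed mice at P15 to P21, with 1 mouse per replicate and 7500 cells on average. These are the ages given for the collection of muscles, whereas the labels of the libraries give upper ages that differ between libraries and are mostly later. Both transgenes are carried by each mouse of all 3 groups. The S100b promoter drives GFP and the promoter of Cspg4, which encodes NG2, drives dsRed, so that cells were separated by the activity of these promoters and not by their position at the neuromuscular junction (NMJ). RNA was amplified with a SMART-Seq v4 kit before sequencing. Counts were available for 9 PSC libraries, with 5334916 to 9592875 counts on genes each, for 8 of S100β-GFP+ cells, with 5221655 to 9411399, and for 10 of NG2-dsRed+ cells, with 5712256 to 7918320. Libraries are named by the numbers in their labels.

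FGFs bind receptor tyrosine kinases together with heparan sulfate on the cell surface, and the receptors pass the signal through adaptor proteins to the MAP kinase pathway, which induces Etv transcription factors and inhibitors of its own activity. FGFs act on many cells of muscle: satellite cells proliferate in response to them, fibroblasts of connective tissue secrete several of them, and those of the Fgf7 subfamily promote the differentiation of motor nerve terminals through Fgfr2. Fgfr1, Fgfr2 and Fgfr3 are spliced into forms that bind different ligands, and counts per gene do not tell these forms apart.

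The sort was first checked against marker genes, in counts scaled to a library total of 1000000 (CPM) after TMM normalization. S100b was at 57.0, 160.4 and 566 CPM in PSCs (lowest, median and highest library), at 9.88, 30.5 and 40.9 CPM in S100β-GFP+ cells and at 1.23, 5.43 and 17.8 CPM in NG2-dsRed+ cells. Cspg4 was at 503, 718 and 965 CPM in PSCs, at 34.5, 53.5 and 148 CPM in S100β-GFP+ cells and at 487, 667 and 890 CPM in NG2-dsRed+ cells. Cspg4 therefore followed the dsRed label, without overlap. S100b followed the GFP label less closely, with 7 of 8 S100β-GFP+ libraries above all NG2-dsRed+ libraries, and all of them below all PSC libraries. Sox10, chosen for mention after its values were seen, encodes a transcription factor that defines the Schwann cell lineage, and was at 506 CPM in PSCs but at 20.2 CPM in S100β-GFP+ cells (means).

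Markers of other cells were high in S100β-GFP+ and NG2-dsRed+ libraries. All 6 fibroblast markers were detected in each cell type, and their sum was 424, 678 and 1746 CPM in PSCs (most abundant gene Col1a1), 10117, 15649 and 22150 CPM in S100β-GFP+ cells (Col1a1) and 1272, 4502 and 12042 CPM in NG2-dsRed+ cells (Dcn). The 5 macrophage and leukocyte markers summed to 2.07, 6.11 and 11.5 CPM in PSCs (Cd68), to 222, 974 and 1456 CPM in S100β-GFP+ cells (Ptprc) and to 5.71, 11.5 and 15.2 CPM in NG2-dsRed+ cells (Cd68). The 9 pericyte and smooth muscle markers summed to 790, 1077 and 1468 CPM in PSCs (Cspg4), to 242, 836 and 1647 CPM in S100β-GFP+ cells (Rgs5) and to 7274, 11784 and 15774 CPM in NG2-dsRed+ cells (Rgs5). No marker of these lists had zero counts in a whole cell type. Of the 4 myelin markers, 1 exceeded the S100β-GFP+ level in PSCs and 3 did not pass the threshold between these cell types (median log2 fold change −0.17), while all 4 were higher in S100β-GFP+ than in NG2-dsRed+ cells (2.37), so that transcripts of Schwann cells were abundant in S100β-GFP+ libraries too. Because these libraries also held markers of fibroblasts and leukocytes at high levels, they are called S100β-GFP+ cells here.

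**Figure D1:**
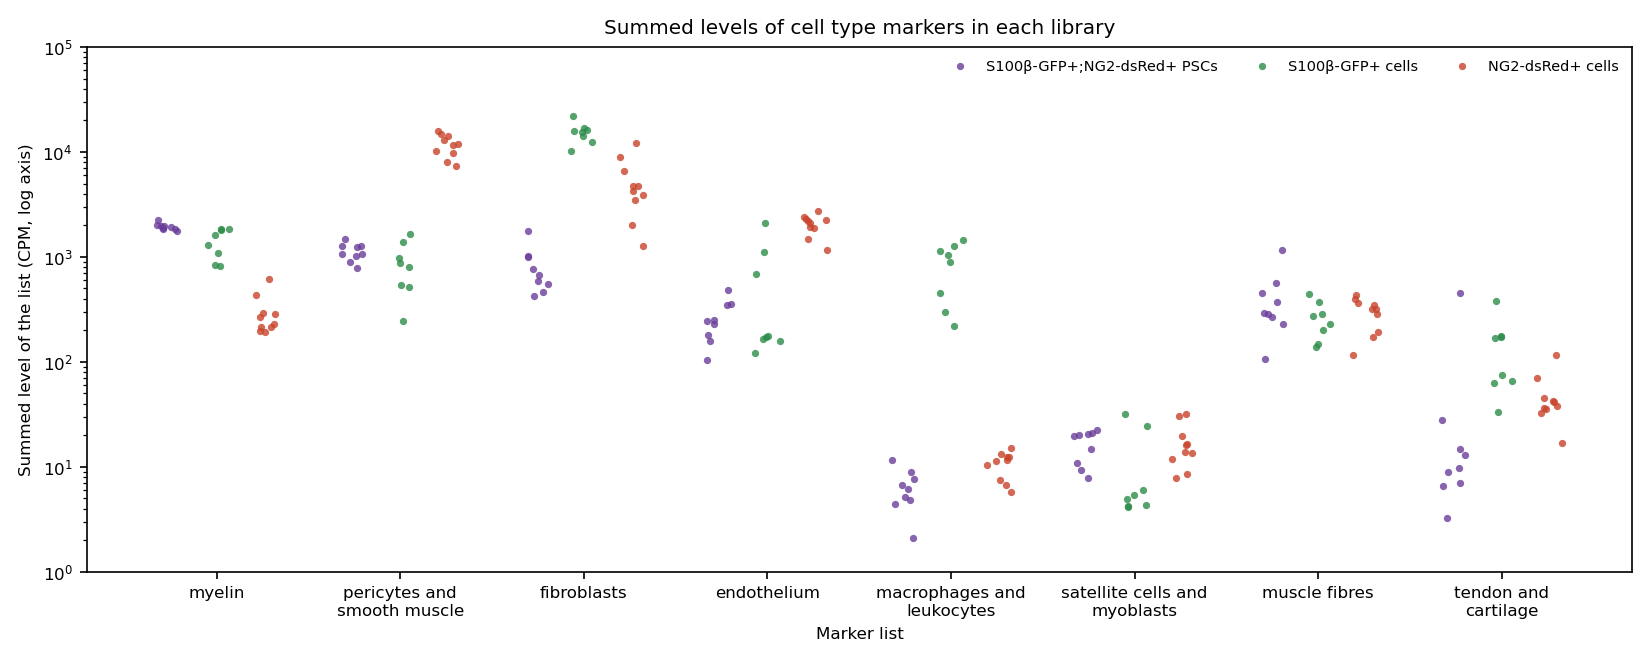
Summed level of 8 lists of cell type markers in each library (points, CPM, log axis) of the 3 sorted cell types. Fibroblast markers reached 10117 to 22150 CPM in S100β-GFP+ cells and at most 1746 CPM in PSCs. The pericyte and smooth muscle list includes Cspg4, whose promoter drives dsRed.

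Most of the tested FGF members were lowest in PSCs, and Fgf2, Fgf7, Fgf10 and Fgf18 were highest in S100β-GFP+ cells. Fgf5, which was not tested, had its highest mean in PSCs. In PSCs, 7 of the 9 tested members were lower than in S100β-GFP+ cells (24.1% of all tested genes were lower there) and 0 were higher (22.9% of all tested genes), by edgeR's quasi-likelihood test with Benjamini-Hochberg adjustment at 0.05. Against NG2-dsRed+ cells, 8 of 9 were lower in PSCs (23.1% of all tested genes) and 0 were higher (20.9%), where the 8 include Fgf7 and Fgf10, which passed the filter on low counts through S100β-GFP+ cells and were not tested with only these cell types in the fit. No member was higher in PSCs at an unadjusted p under 0.05 either, nor with DESeq2 or limma-voom, which called 0 members in this direction in both comparisons. Fgf2, Fgf7, Fgf10, Fgf18 and Fgfr1 were higher in S100β-GFP+ cells than in NG2-dsRed+ cells, which makes 5 of 9 (18.1% of all tested genes), and 0 of 9 were lower (15.2%). In that last direction 2 members (Fgfr3 and Fgf1) had an unadjusted p under 0.05, and DESeq2 called 1 and limma-voom 3.

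The 5 members higher in S100β-GFP+ cells than in NG2-dsRed+ cells were also higher there than in PSCs. This pattern was held by 11.8% of all tested genes. PSCs were below each of the other groups for 7 of 9 (14.4% of all tested genes). The 7 include Fgf10, for which no difference is read between PSCs and NG2-dsRed+ cells, and Fgf7, whose test there is a description. Fgfr1 is also among them, and its call against NG2-dsRed+ cells depended on single libraries. With only PSCs and NG2-dsRed+ cells in the fit, 5 of 7 tested members differed. The median log2 fold change of the 9 members was −2.72 for PSCs minus S100β-GFP+ cells (0.04 over all tested genes), −2.08 for PSCs minus NG2-dsRed+ cells (0.02) and 1.56 for S100β-GFP+ minus NG2-dsRed+ cells (−0.02). The 3 comparisons share libraries and are not independent, and a member may pass the filter on low counts through the cell type in which it is high, so these counts and medians are a description. In bulk RNA of sorted cells, fewer cells that express a gene and less of its RNA per cell cannot be told apart.

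**Figure D2:**
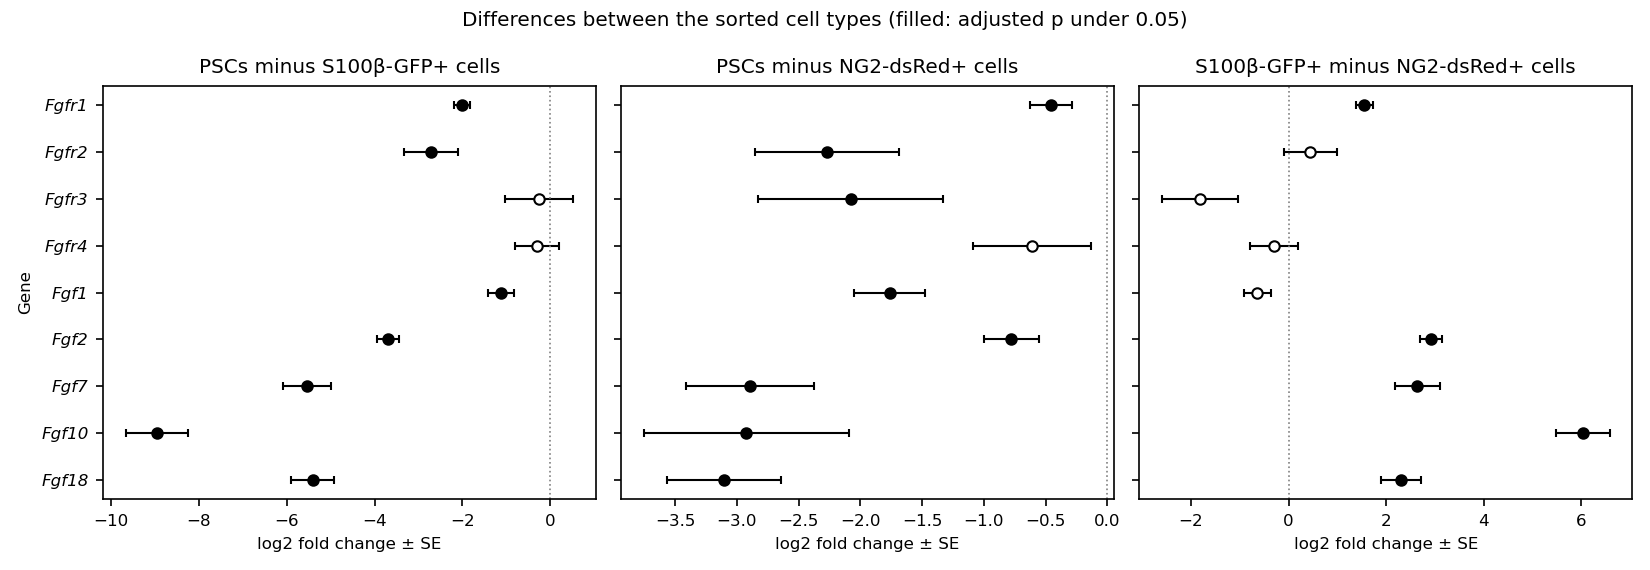
Log2 fold change (points) with its standard error (bars) of the 9 tested members in the 3 comparisons, on axes of different range. Filled points had an adjusted p under 0.05 in edgeR's quasi-likelihood test, and no filled point lies to the right of 0 where PSCs are compared with another cell type.

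Of the receptors, Fgfr1 was the most abundant. Fgfr1 (ENSMUSG00000031565, chr8:25513654-25575718, plus strand, GRCm38) encodes the FGF receptor most widely used by mesenchymal cells. Its level was 38.5, 60.8 and 110.1 CPM in PSCs (lowest, median and highest library), 218, 261 and 377 CPM in S100β-GFP+ cells and 72.3, 96.6 and 111.3 CPM in NG2-dsRed+ cells. Each of the 8 S100β-GFP+ libraries lay above all libraries of the other cell types, while the ranges of PSCs and NG2-dsRed+ cells overlapped, with 1 of 10 NG2-dsRed+ libraries above all PSC libraries. Fgfr1 was higher in S100β-GFP+ cells, 4.02-fold relative to PSCs (log2 fold change −2.01 ± 0.18, SE, PSCs minus S100β-GFP+ cells, adjusted p = 2.59e-10) and 2.94-fold relative to NG2-dsRed+ cells (1.56 ± 0.18, adjusted p = 3.39e-08) in edgeR's quasi-likelihood test with Benjamini-Hochberg adjustment.

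The lower Fgfr1 level of PSCs relative to NG2-dsRed+ cells was small, at 69.0 ± 25.0 CPM (SD, n = 9) against 94.5 ± 14.5 CPM (SD, n = 10), and depended on single libraries. Its log2 fold change of −0.45 ± 0.17 (SE) had an adjusted p of 0.0316 by edgeR's quasi-likelihood test with Benjamini-Hochberg adjustment. Leaving out PSC library 4, 12, 18, 20, 34 or 36, S100β-GFP+ library 11, or NG2-dsRed+ library 28, 30 or 35, each alone, moved the adjusted p of the same test past 0.05. Over all 27 fits without 1 library the log2 fold change was between −0.56 and −0.31 (adjusted p from 0.0065 to 0.118, edgeR with Benjamini-Hochberg adjustment). The call was also lost in 3 of 8 other settings (adjusted p from 0.00677 to 0.0836 over the settings), namely without a filter on low counts, with only these cell types in the fit, and with a term for the fraction of each library taken by Gm15564, Gm23935 and Lars2. These 3 genes, whose counts can include ribosomal RNA sequence, took 3.64% to 36.6% of the counts of PSC libraries and 12.5% to 40.0% of those of NG2-dsRed+ libraries, and their part in the result was not tested beyond that term. Fgfr1 overlaps the antisense gene Gm16159, and because the strand setting of the counting was not stated, reads of the pair cannot be told apart.

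Fgfr2 encodes the receptor whose epithelial splice form binds Fgf7 and Fgf10. Fgfr2 (ENSMUSG00000030849, chr7:130162451-133123350, minus strand) was at 0, 0.211 and 2.50 CPM in PSCs, where 53 counts were found in 7 of 9 libraries. Its level was 2.61, 4.71 and 8.23 CPM in S100β-GFP+ cells and 0.284, 3.34 and 6.51 CPM in NG2-dsRed+ cells. The 8 S100β-GFP+ libraries were above all PSC libraries, as were 6 of 10 NG2-dsRed+ libraries, and the S100β-GFP+ and NG2-dsRed+ cells overlapped. In PSCs the level was lower than in S100β-GFP+ cells (log2 fold change −2.72 ± 0.61, SE, adjusted p = 0.000492) and lower than in NG2-dsRed+ cells (−2.27 ± 0.58, adjusted p = 0.00211), and S100β-GFP+ minus NG2-dsRed+ cells gave 0.45 ± 0.55 (adjusted p = 0.579, edgeR's quasi-likelihood test with Benjamini-Hochberg adjustment). With limma-voom the folds were 11.3 in place of 6.57 and 7.89 in place of 4.81. The annotated span of Fgfr2 is long because 1 annotated transcript runs past genes such as Ate1 and Oat, so its counts are uncertain.

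Fgfr3, a receptor known for restraining the growth of cartilage, had its highest median in NG2-dsRed+ cells, unlike Fgfr1 and Fgfr2. Its level (ENSMUSG00000054252, chr5:33721674-33737068, plus strand) was 0.105, 0.470 and 23.5 CPM in PSCs, 0.666, 1.77 and 11.4 CPM in S100β-GFP+ cells and 4.11, 13.3 and 26.5 CPM in NG2-dsRed+ cells. PSC library 31 held 164 of the 225 counts in PSCs, and the next PSC library was at 2.61 CPM. The ranges of all 3 cell types overlapped, although 6 of 10 NG2-dsRed+ libraries lay above all S100β-GFP+ libraries. By edgeR's quasi-likelihood test with Benjamini-Hochberg adjustment, Fgfr3 was lower in PSCs than in NG2-dsRed+ cells (log2 fold change −2.08 ± 0.75, SE, adjusted p = 0.0245), and neither PSCs minus S100β-GFP+ cells (−0.26 ± 0.78, adjusted p = 0.814) nor S100β-GFP+ minus NG2-dsRed+ cells (−1.82 ± 0.78, adjusted p = 0.0725) passed the threshold. The last of these passed the threshold in 6 of 8 other settings, with log2 fold changes from −3.49 to −1.74 and adjusted p from 0.000103 to 0.0847 (Benjamini-Hochberg adjustment) over the 8.

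Single libraries weighed on these Fgfr3 values. Without PSC library 31, PSCs were lower than both S100β-GFP+ cells (log2 fold change −2.23, adjusted p = 0.00386) and NG2-dsRed+ cells (−4.04, adjusted p = 4.94e-06, 16.5-fold in place of 4.22-fold, and 15.8-fold with all libraries in limma-voom), and S100β-GFP+ minus NG2-dsRed+ cells was −1.82 (adjusted p = 0.0112, edgeR with Benjamini-Hochberg adjustment). In library 31 the 5 tendon and cartilage markers summed to 449.8 CPM, against a median of 9.68 CPM over the PSC libraries (range 3.25 to 449.8 CPM), and Acan, which encodes the aggrecan of cartilage, was the most abundant of them. The 5 endothelial markers also had their highest PSC sum in library 31, at 478 CPM against a median of 244 CPM. The part of these 2 lists in the Fgfr3 level of library 31 was not tested, and none of their markers was at zero counts in PSCs.

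In S100β-GFP+ cells Fgfr3 was highest in libraries 22 (11.4 CPM) and 17 (10.4 CPM). Without library 17, S100β-GFP+ minus NG2-dsRed+ cells gave −2.19 (adjusted p = 0.0403) and PSCs minus S100β-GFP+ cells 0.11 (adjusted p = 0.930), and without library 22 these were −2.29 (adjusted p = 0.0330) and 0.21 (adjusted p = 0.860, edgeR's quasi-likelihood test with Benjamini-Hochberg adjustment). The same libraries had the highest sums of the 5 endothelial markers among S100β-GFP+ cells, 2095 CPM in library 17 and 1116 CPM in library 22 against a lowest of 121 and a median of 174 CPM (most abundant gene Cdh5, none at zero counts). They were also highest in the 5 satellite cell and myoblast markers, at 31.9 and 24.4 CPM against a lowest of 4.12 and a median of 5.17 CPM (Pax7, none at zero counts). The 9 pericyte and smooth muscle markers, at 1647 and 1392 CPM against a lowest of 242 and a median of 836 CPM (Rgs5, none at zero counts), and the 4 muscle fibre markers, at 444 and 372 CPM against a lowest of 138 and a median of 251 CPM (Acta1, none at zero counts), were highest in them too. The 5 macrophage and leukocyte markers were lowest there, at 298 and 222 CPM against a median of 974 and a highest of 1456 CPM (Ptprc, none at zero counts). Whether such cells carried the Fgfr3 transcripts was not tested.

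Fgfr4, the receptor associated with muscle progenitors, did not pass the threshold in any comparison. Its level (ENSMUSG00000005320, chr13:55152640-55168759, plus strand) was 0.350, 2.76 and 5.01 CPM in PSCs, 0.554, 2.72 and 10.0 CPM in S100β-GFP+ cells and 0.761, 4.63 and 9.76 CPM in NG2-dsRed+ cells. The 3 ranges overlapped, and libraries 22 (10.0 CPM) and 17 (8.99 CPM) were again the highest of the S100β-GFP+ cells. The log2 fold changes were −0.30 ± 0.51 (SE, adjusted p = 0.654) for PSCs minus S100β-GFP+ cells, −0.61 ± 0.48 (adjusted p = 0.323) for PSCs minus NG2-dsRed+ cells and −0.30 ± 0.50 (adjusted p = 0.689) for S100β-GFP+ minus NG2-dsRed+ cells in edgeR's quasi-likelihood test with Benjamini-Hochberg adjustment. Leaving out library 22 turned the first of these to 0.09 (adjusted p = 0.905, edgeR with Benjamini-Hochberg adjustment), so no direction is read from it. S100β-GFP+ minus NG2-dsRed+ cells passed the threshold with limma-voom (−1.24) and without libraries 14, 17 and 22 together (−1.44), with adjusted p from 0.0279 to 0.771 over 8 settings, each with Benjamini-Hochberg adjustment.

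**Figure D3:**
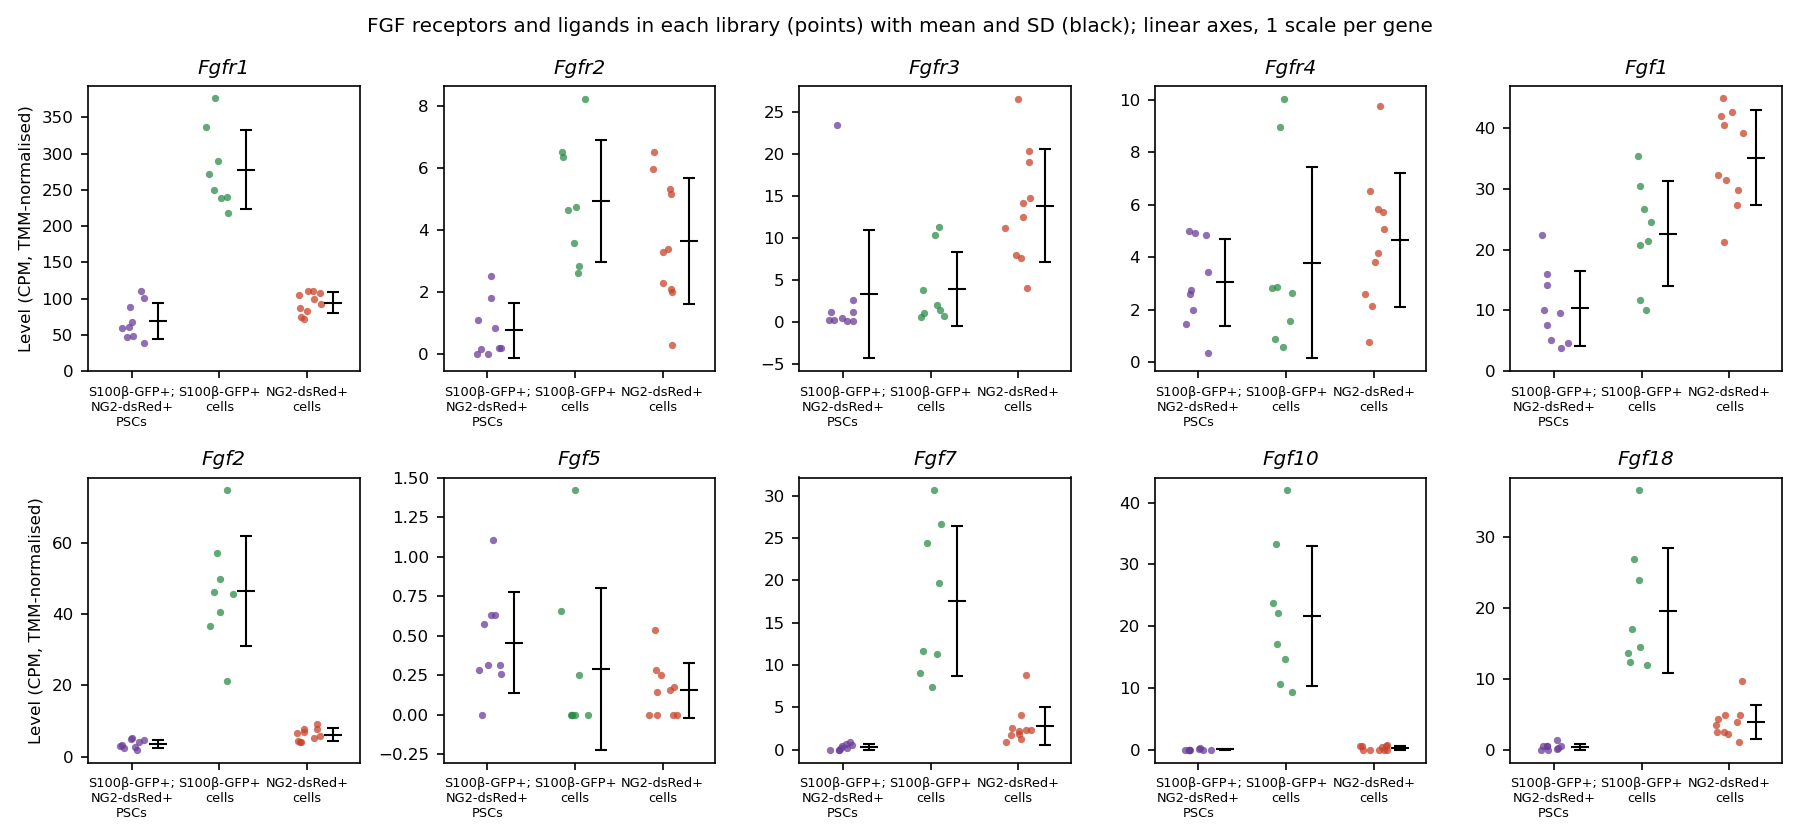
Level of each of the 10 members in each library (points, CPM, linear axes of different scale), with the mean and SD (black) of the 9 PSC, 8 S100β-GFP+ and 10 NG2-dsRed+ libraries. Fgfr1, Fgf2, Fgf10 and Fgf18 show no overlap between S100β-GFP+ cells and either other cell type, and PSC library 31 stands apart for Fgfr3.

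Of the ligands, Fgf1 and Fgf2 lack a classical signal peptide and bind several FGF receptors. Fgf1 (ENSMUSG00000036585, chr18:38838673-38929472, minus strand) was at 3.76, 9.58 and 22.4 CPM in PSCs, 10.1, 23.0 and 35.4 CPM in S100β-GFP+ cells and 21.3, 35.7 and 44.8 CPM in NG2-dsRed+ cells. It was thus the only tested ligand among the members with its highest median in NG2-dsRed+ cells, where 9 of 10 libraries lay above all PSC libraries. In S100β-GFP+ cells 4 of 8 libraries did so, and S100β-GFP+ and NG2-dsRed+ cells overlapped. PSCs were lower than S100β-GFP+ cells (log2 fold change −1.13 ± 0.29, SE, adjusted p = 0.00218) and lower than NG2-dsRed+ cells (−1.76 ± 0.28, adjusted p = 7.91e-06) in edgeR's quasi-likelihood test with Benjamini-Hochberg adjustment. S100β-GFP+ minus NG2-dsRed+ cells gave −0.64 ± 0.28 (SE, adjusted p = 0.0870, same test and adjustment), which passed the threshold with only these cell types in the fit (−0.62) and with limma-voom (−0.73), the adjusted p ranging from 0.00962 to 0.121 in 8 settings with Benjamini-Hochberg adjustment. Fgf1 overlaps Arhgap26 on the other strand, and its counts are uncertain to that extent. Endothelial markers moved with Fgf1 and Fgfr3, in that all 5 were lower in PSCs than in NG2-dsRed+ cells (median log2 fold change −3.07). Their sum was 105, 244 and 478 CPM in PSCs, 121, 174 and 2095 CPM in S100β-GFP+ cells and 1172, 2155 and 2731 CPM in NG2-dsRed+ cells (Cdh5 the most abundant in each, none at zero counts). Pericyte and smooth muscle markers moved in this direction too, with 8 of 9 lower in PSCs than in NG2-dsRed+ cells (median −4.96). All 9 were lower in S100β-GFP+ than in NG2-dsRed+ cells (−3.39). Relative to S100β-GFP+ cells, 1 of 5 endothelial and 5 of 9 pericyte and smooth muscle markers were lower in PSCs, and 1 of the 9, Cspg4, was higher. PSC library 18 had the highest Fgf1 (22.4 CPM) and the lowest endothelial sum (105 CPM). The part of these cells in the levels of both members was not tested.

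Fgf2 was low in PSCs and NG2-dsRed+ cells and high in S100β-GFP+ cells. Fgf2 (ENSMUSG00000037225, chr3:37348346-37410108, plus strand) encodes basic FGF, a mitogen of fibroblasts and satellite cells. Its level was 1.93, 3.16 and 5.16 CPM in PSCs, 21.4, 45.9 and 74.8 CPM in S100β-GFP+ cells and 3.97, 6.13 and 9.13 CPM in NG2-dsRed+ cells. Each S100β-GFP+ library lay above each of the other 19 libraries, and 6 of 10 NG2-dsRed+ libraries lay above all PSC libraries. Fgf2 was 12.9-fold higher in S100β-GFP+ cells than in PSCs (log2 fold change −3.69 ± 0.24, SE, PSCs minus S100β-GFP+ cells, adjusted p = 5.07e-13) and 7.54-fold higher than in NG2-dsRed+ cells (2.91 ± 0.23, adjusted p = 3.50e-11) by edgeR's quasi-likelihood test with Benjamini-Hochberg adjustment. PSCs were lower than NG2-dsRed+ cells by edgeR's quasi-likelihood test with Benjamini-Hochberg adjustment (−0.78 ± 0.22, SE, adjusted p = 0.00540), a call that limma-voom did not make (−0.62, adjusted p = 0.0719, range 0.00589 to 0.0719 over 8 settings). Fgf2 overlaps Nudt6 and Fgf2os on the other strand, whose reads may be counted with it or be lost with it.

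Fgf5, which regulates the hair cycle, had too few counts for the test. Fgf5 (ENSMUSG00000029337, chr5:98254184-98277030, plus strand) was at 0, 0.313 and 1.11 CPM in PSCs (40 counts in 8 of 9 libraries), at 0, 0 and 1.42 CPM in S100β-GFP+ cells (12 counts in 3 of 8 libraries) and at 0, 0.1496 and 0.534 CPM in NG2-dsRed+ cells (10 counts in 6 of 10 libraries). The ranges overlapped, with 4 of 9 PSC libraries above all NG2-dsRed+ libraries, and a difference was not tested.

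Fgf7, Fgf10 and Fgf18 are secreted ligands with a signal peptide. Fgf7, the keratinocyte growth factor that mesenchymal cells supply to epithelia (ENSMUSG00000027208, chr2:126034658-126091185, plus strand), was at 0, 0.209 and 0.956 CPM in PSCs, 7.34, 15.6 and 30.6 CPM in S100β-GFP+ cells and 0.876, 2.25 and 8.82 CPM in NG2-dsRed+ cells. PSCs held 31 counts in all, and Fgf7 did not pass the filter with only PSCs and NG2-dsRed+ cells in the fit, so that its test between them is a description. It passed the filter through S100β-GFP+ cells, where it is high, so its tests against these cells are a description too. Each S100β-GFP+ library exceeded each PSC library and 7 of 8 exceeded each NG2-dsRed+ library, while 9 of 10 NG2-dsRed+ libraries exceeded each PSC library. The level in PSCs was 46.4-fold below that of S100β-GFP+ cells (log2 fold change −5.54 ± 0.55, SE, adjusted p = 1.56e-09) and 7.44-fold below that of NG2-dsRed+ cells (−2.89 ± 0.52, adjusted p = 3.46e-05), and S100β-GFP+ cells were 6.24-fold above NG2-dsRed+ cells (2.64 ± 0.45, adjusted p = 2.98e-05, edgeR's quasi-likelihood test with Benjamini-Hochberg adjustment). The first of these folds rested on few counts and was 77.6 with a term for the fraction taken by Gm15564, Gm23935 and Lars2. Fgf7 overlaps Fam227b on the other strand.

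Fgf10, the close relative of Fgf7 that directs outgrowth of limb and lung buds, was nearly confined to S100β-GFP+ cells. Fgf10 (ENSMUSG00000021732, chr13:118669791-118792115, plus strand) had 2 counts in PSCs, 1 in each of libraries 18 and 34, and 21 counts in 5 of 10 NG2-dsRed+ libraries. In S100β-GFP+ cells its level was 9.29, 19.5 and 42.0 CPM with 1038 counts, against a highest library of 0.175 CPM in PSCs and 0.787 CPM in NG2-dsRed+ cells. Each S100β-GFP+ library lay far above each of the other 19 libraries. The ratio of S100β-GFP+ cells to PSCs over pooled counts was 848 (95% exact counting interval 234 to 7009), and that of NG2-dsRed+ cells to PSCs was 12.4 (3.04 to 109). These intervals cover counting error only and not the spread between libraries, and PCR copies are not separate molecules. The fold of S100β-GFP+ cells over PSCs was 497 in edgeR's fit and 324 with limma-voom. For NG2-dsRed+ cells over PSCs the folds were 7.59 and 4.16.

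In edgeR's quasi-likelihood test with Benjamini-Hochberg adjustment, Fgf10 passed the threshold between PSCs and S100β-GFP+ cells (adjusted p = 1.45e-11) and between S100β-GFP+ and NG2-dsRed+ cells, where it was 65.5-fold higher (log2 fold change 6.03 ± 0.55, SE, adjusted p = 5.14e-10). Because Fgf10 passed the filter on low counts through S100β-GFP+ cells, where it is high, these tests are a description. Between PSCs and NG2-dsRed+ cells, which both had few counts, Fgf10 did not pass the filter with only these cell types in the fit, and limma-voom did not call it, so that no difference is read from the call of the fit of all 3 cell types. Fgf10 overlaps the antisense gene Gm16263.

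Fgf18, a ligand known from bone, cartilage and lung, resembled Fgf7. Fgf18 (ENSMUSG00000057967, chr11:33117430-33147400, minus strand) was at 0, 0.470 and 1.34 CPM in PSCs (38 counts), 12.0, 15.8 and 36.6 CPM in S100β-GFP+ cells and 1.05, 3.76 and 9.74 CPM in NG2-dsRed+ cells. All S100β-GFP+ libraries were above all others, and 9 of 10 NG2-dsRed+ libraries were above all PSC libraries. Fgf18 was 42.5-fold lower in PSCs than in S100β-GFP+ cells (log2 fold change −5.41 ± 0.49, SE, adjusted p = 2.54e-10), 8.61-fold lower than in NG2-dsRed+ cells (−3.11 ± 0.46, adjusted p = 2.31e-06) and 4.94-fold higher in S100β-GFP+ than in NG2-dsRed+ cells (2.30 ± 0.40, adjusted p = 3.74e-05, edgeR's quasi-likelihood test with Benjamini-Hochberg adjustment). No other annotated gene overlaps it.

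Fibroblast markers moved with these ligands and with Fgfr1. All 6 fibroblast markers were lower in PSCs, both relative to S100β-GFP+ cells (median log2 fold change −4.14) and relative to NG2-dsRed+ cells (−2.76). Of these, 4 of 6 were higher in S100β-GFP+ than in NG2-dsRed+ cells (1.42), in the same direction as Fgfr1, Fgf2, Fgf7, Fgf10 and Fgf18. The 5 macrophage and leukocyte markers were higher in S100β-GFP+ cells than in PSCs and NG2-dsRed+ cells as well. Among NG2-dsRed+ libraries, number 28 had the highest fibroblast marker sum (12042 CPM, median 4502 CPM) and the highest Fgf2 (9.13 CPM), Fgf7 (8.82 CPM) and Fgf18 (9.74 CPM), and the lowest Fgfr3 (4.11 CPM) and Fgfr4 (0.761 CPM). Fgf10 had no count in it, and Fgfr1 was highest in number 35 (111.3 CPM). Among S100β-GFP+ libraries the highest values fell in different libraries, in number 14 for Fgfr1, Fgf2 and the fibroblast sum, 22 for Fgf7, 27 for Fgf10 and 33 for Fgf18. The part of fibroblasts or leukocytes in the levels of these members was not tested.

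Levels of different members were compared as CPM per kilobase of exon. On this scale the 4 receptors reached a mean sum of 8.38 ± 3.72 (SD, n = 9) for PSCs, 30.2 ± 5.30 (n = 8) for S100β-GFP+ cells and 13.2 ± 1.71 (n = 10) for NG2-dsRed+ cells. The 6 ligands reached 3.06 ± 1.06, 37.8 ± 11.9 and 11.7 ± 3.22 in the same order. Receptor transcripts thus exceeded ligand transcripts in the mean of PSCs, and the means were of similar size in the other cell types.

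Fgfr1 made up 85.7 ± 7.53% (SD) of the receptor sum of PSCs, 92.9 ± 6.03% of that of S100β-GFP+ cells and 73.0 ± 9.37% of that of NG2-dsRed+ cells, per kilobase of exon. Fgfr4 came next in PSCs, at 9.84 ± 4.03%, and Fgfr3 in NG2-dsRed+ cells, at 14.5 ± 6.54%. In NG2-dsRed+ cells the shares of Fgfr3 and Fgfr4 (9.87 ± 4.95%) overlapped. Fgfr2 had the smallest mean share in PSCs (0.769 ± 0.922%) and in NG2-dsRed+ cells (2.71 ± 1.57%). In S100β-GFP+ cells the median share of Fgfr3 (0.803%) was below that of Fgfr2 (1.56%), while the order of their means was reversed (1.87 ± 2.18% and 1.57 ± 0.53%).

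The order of the ligands differed between the cell types on the same scale. Fgf1 was the most abundant ligand in PSCs, at 58.9 ± 19.2% of the ligand sum, followed by Fgf2 (18.6 ± 6.78%) and Fgf18 (12.1 ± 11.9%), whose spreads overlapped. In S100β-GFP+ cells Fgf18 led, at 43.1 ± 8.65%, ahead of Fgf2 (18.5 ± 4.46%), Fgf7 (14.7 ± 6.92%), Fgf10 (12.4 ± 5.23%) and Fgf1 (10.9 ± 2.44%), and among these last 4 the spreads of neighbours overlapped. In NG2-dsRed+ cells Fgf1 led again, at 56.7 ± 12.7%, followed by Fgf18 (27.2 ± 9.41%) and Fgf2 (8.09 ± 2.76%). Taking the length of the longest transcript in place of all exons moved 8 of the 30 levels by more than 1 SD, among them Fgfr1 in the 3 cell types.

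The genes most like each member were found by the correlation of log2 CPM over the 27 libraries with 13014 protein-coding genes, which is a description, since the points share the differences between the cell types. Fgfr1 was nearest to Fndc1 (Pearson r = 0.967), Gfpt2 (0.962) and Tnxb (0.953), and Fgf2 to Lmx1a (0.965), Col14a1 (0.959) and Dpt (0.953). Fgf10 was near to Mmp3 (0.970) and Slamf8 (0.955). Col14a1, Dpt and Tnxb encode matrix proteins of connective tissue, and Mmp3 encodes a stromelysin that degrades matrix. Fgf7 was nearest to Ptx3 (0.949), F830016B08Rik (0.945) and Mfap5 (0.944), and Fgf18 to Adgrg2 (0.960), Cd55 (0.959) and Ifi211 (0.956). Among the members themselves, Fgf7 and Fgf18 were the nearest pair (0.942), followed by Fgfr1 and Fgf2 (0.932).

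The members with another pattern had other neighbours in the same 27 libraries. Fgfr3 was nearest to Papss2 (0.909), Tnfrsf10b (0.906) and Itga3 (0.900), Fgf1 to Ccdc3 (0.895), Cavin3 (0.887) and Rrad (0.883), and Fgfr2 to Kdelr1 (0.872), Sec24d (0.866) and Ptges (0.851). Fgfr4 was nearest to Ralgapb (0.837), Myf5 (0.817) and Trim62 (0.801). Myf5 encodes a transcription factor of satellite cells and myoblasts, and was at 2.10 CPM in PSCs, 1.56 CPM in S100β-GFP+ cells and 2.32 CPM in NG2-dsRed+ cells (means).

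Fgf7, Fgf10 and Fgf18 are the tested ligands with a signal peptide among the members, and were highest in S100β-GFP+ cells. The 250 bases before their RefSeq start sites (build GRCm38.p6) are therefore given, 5′ to 3′ on the strand of the gene. RefSeq windows were found for 8 of the 10 members. Capitals mark the GC box core GGGCGG on either strand, which 32.7% of 32851 windows of the same length hold, and the windows were also searched on both strands for the TATA box core TATAAA (12.4% of windows) and the AP-1 site TGANTCA (6.75% of windows). The windows lie at chr2:126034408-126034657 (plus strand, Fgf7), chr13:118714449-118714698 (plus strand, Fgf10) and chr11:33147401-33147650 (minus strand, Fgf18). Those of Fgf7 and Fgf18 adjoin the start of the annotated span of the gene. That of Fgf10 lies within the annotated span, which begins at 118669791, so its RefSeq start differs from the start of that span.
Fgf7: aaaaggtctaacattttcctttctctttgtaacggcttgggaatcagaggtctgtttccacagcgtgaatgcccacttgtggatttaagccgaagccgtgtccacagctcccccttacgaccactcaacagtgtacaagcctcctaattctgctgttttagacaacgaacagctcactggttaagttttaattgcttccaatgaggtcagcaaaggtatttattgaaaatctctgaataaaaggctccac
Fgf10: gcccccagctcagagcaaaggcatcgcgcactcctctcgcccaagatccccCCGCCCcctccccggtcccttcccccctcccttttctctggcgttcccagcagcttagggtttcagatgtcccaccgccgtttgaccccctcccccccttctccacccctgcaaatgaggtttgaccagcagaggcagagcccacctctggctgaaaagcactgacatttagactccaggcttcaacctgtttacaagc
Fgf18: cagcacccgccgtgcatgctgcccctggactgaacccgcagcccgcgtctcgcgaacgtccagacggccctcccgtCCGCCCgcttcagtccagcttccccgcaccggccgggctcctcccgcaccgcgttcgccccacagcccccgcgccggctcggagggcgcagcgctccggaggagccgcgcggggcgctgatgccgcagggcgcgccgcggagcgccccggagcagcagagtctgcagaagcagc
The Fgf7 window held none of these motifs, and the windows of Fgf10 and Fgf18 each held 1 GC box core, with its first base at −199 and −174 from the start. Their GC content was 43.6% for Fgf7, 61.2% for Fgf10 and 77.2% for Fgf18, against a median of 52.4% over all windows. The 3 windows thus shared none of these motifs, and a match is no evidence of binding.

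The other secreted FGFs were mostly too low to test. Of 12 listed, 2 were tested. Fgf16, which is known from the heart, was at 0, 0.158 and 0.730 CPM in PSCs, 1.00, 2.75 and 3.71 CPM in S100β-GFP+ cells and 0, 0.478 and 1.94 CPM in NG2-dsRed+ cells, and was lower in PSCs than in S100β-GFP+ cells, without overlap (log2 fold change −3.58 ± 0.66, SE, adjusted p = 4.56e-05, edgeR's quasi-likelihood test with Benjamini-Hochberg adjustment). Fgf9, a ligand of Fgfr3 that acts in gonad and skeleton, was at 0, 0.605 and 1.57 CPM in PSCs, 0.222, 1.62 and 4.97 CPM in S100β-GFP+ cells and 0, 1.90 and 4.09 CPM in NG2-dsRed+ cells, all overlapping. Its lower level in PSCs against S100β-GFP+ cells (−1.71 ± 0.67) was lost without any 1 of 7 libraries (−2.04 to −1.34 over all fits without 1 library), without libraries 14, 17 and 22 together (−0.83) and with the term for Gm15564, Gm23935 and Lars2 (−1.13). Against NG2-dsRed+ cells its lower level in PSCs (−1.87 ± 0.64) held without any 1 library, was 5.94-fold in limma-voom in place of 3.64-fold and was lost with that term (−1.36). Fgf9 and Fgf16 did not pass the filter with only PSCs and 1 other cell type in the fit, so that their tests are a description. Of the intracellular FGF homologous factors, which bind sodium channels and not FGF receptors, 2 of 4 were tested (Fgf11 and Fgf13), and of the co-receptors, the decoy receptor and the carriers 2 of 6 were (Fgfrl1 and Fgfbp3). The untested homologous factors were Fgf12, with 185 counts in PSCs against 30 (S100β-GFP+) and 17 (NG2-dsRed+) and 7 of 9 PSC libraries above all libraries of either other cell type, and Fgf14, with 3, 119 and 60 counts and all NG2-dsRed+ libraries above all PSC libraries. Of the 4 tested genes, none passed the threshold in any comparison by edgeR, 0 had an unadjusted p under 0.05, and their medians lay between 0.774 CPM (Fgfbp3 in S100β-GFP+ cells) and 10.5 CPM (Fgfrl1 in NG2-dsRed+ cells). The Klotho co-receptors Kl and Klb, which endocrine FGFs need, were not tested, with 30 and 16 counts over the 9 PSC libraries.

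Feedback inhibitors and target genes of FGF signalling, on which other receptor tyrosine kinases also act, differed in direction from gene to gene, and most were lowest in S100β-GFP+ cells. Of 14 listed genes 13 were tested, and in PSCs 9 were higher and 2 lower than in S100β-GFP+ cells (median log2 fold change 1.01, with 22.9% of all tested genes higher and 24.1% lower), while 4 were higher and 5 lower than in NG2-dsRed+ cells (0.11, with 20.9% and 23.1% of all tested genes). In S100β-GFP+ cells, where Fgfr1 and most ligands were highest, 1 was higher and 10 were lower than in NG2-dsRed+ cells (−1.15, with 18.1% and 15.2% of all tested genes).

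**Figure D4:**
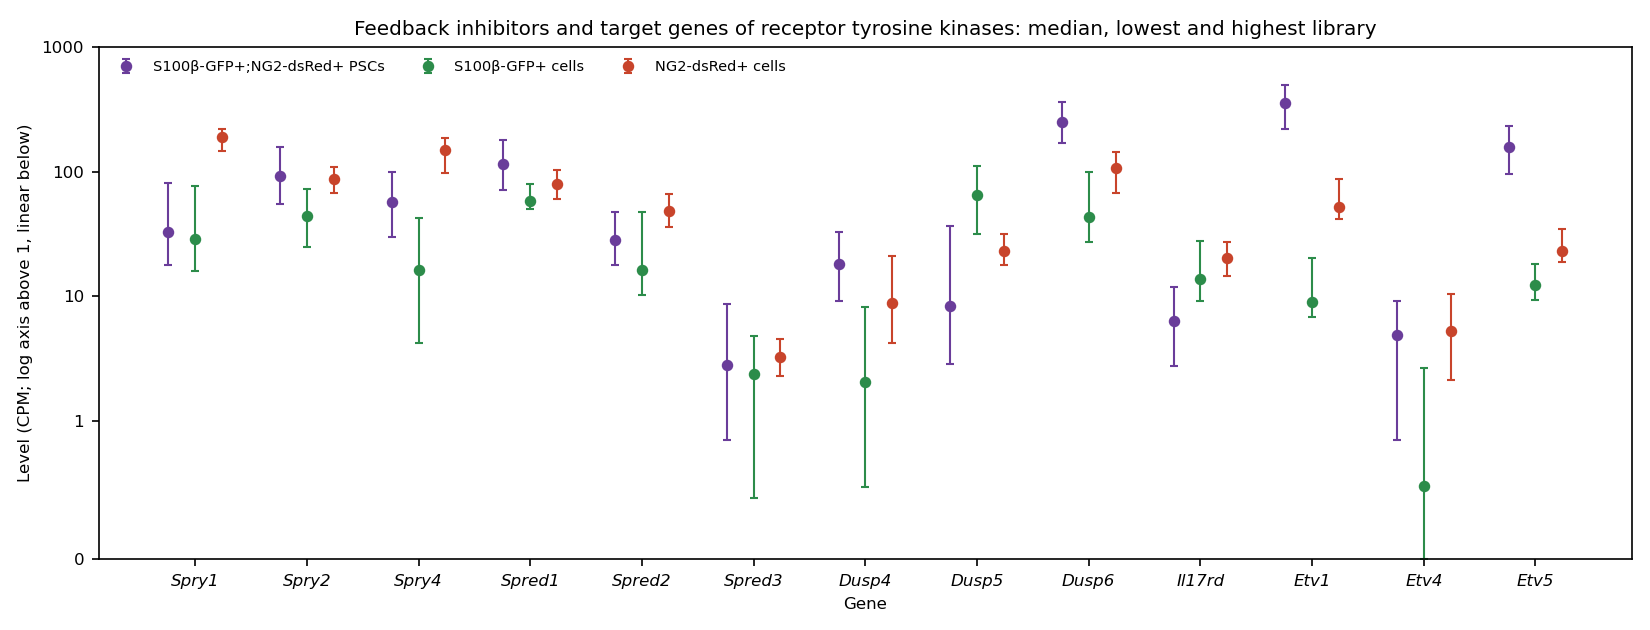
Median (points) with lowest and highest library (bars) of 13 feedback inhibitors and target genes of receptor tyrosine kinases in the 3 sorted cell types (CPM, log axis above 1). For Dusp6, Etv1 and Etv5 the PSC libraries lie above all other libraries.

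Etv1, Etv4 and Etv5 encode ETS transcription factors induced by MAP kinase signalling. Etv1 was at 221, 354 and 499 CPM in PSCs, 6.79, 9.04 and 20.1 CPM in S100β-GFP+ cells and 41.6, 52.4 and 87.8 CPM in NG2-dsRed+ cells. Etv5 was at 96.0, 157 and 230 CPM in PSCs, 9.22, 12.2 and 18.0 CPM in S100β-GFP+ cells and 18.7, 23.1 and 34.5 CPM in NG2-dsRed+ cells. For both genes the 3 cell types were fully separated, with PSCs highest and S100β-GFP+ cells lowest. The log2 fold changes of PSCs minus S100β-GFP+ cells were 5.01 ± 0.25 for Etv1 (SE, adjusted p = 2.11e-15) and 3.53 ± 0.19 for Etv5 (adjusted p = 1.52e-14, edgeR's quasi-likelihood test with Benjamini-Hochberg adjustment). Etv4 was lower, at 0.861, 4.84 and 9.15 CPM in PSCs, 0, 0.525 and 2.63 CPM in S100β-GFP+ cells and 2.13, 5.22 and 10.5 CPM in NG2-dsRed+ cells, and was lower in S100β-GFP+ cells, where 9 of 10 NG2-dsRed+ and 8 of 9 PSC libraries exceeded all of theirs (−2.62 ± 0.55, SE, S100β-GFP+ minus NG2-dsRed+ cells, adjusted p = 0.000399 by edgeR's quasi-likelihood test with Benjamini-Hochberg adjustment). With limma-voom this fold was 11.0 in place of 6.15.

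Dusp6, a phosphatase that switches off the kinase ERK, was at 169.8, 249 and 360 CPM in PSCs, 27.2, 43.5 and 100.04 CPM in S100β-GFP+ cells and 67.2, 107 and 142 CPM in NG2-dsRed+ cells. All PSC libraries were above all others, and 7 of 10 NG2-dsRed+ libraries were above all S100β-GFP+ libraries. Dusp4, of the same family, had medians of 18.2, 2.03 and 8.73 CPM in PSC, S100β-GFP+ and NG2-dsRed+ libraries, and the 9 PSC libraries were above all S100β-GFP+ libraries. Dusp5 went the other way, at medians of 8.28, 64.7 and 23.1 CPM, and was lower in PSCs than in S100β-GFP+ cells (log2 fold change −2.68 ± 0.35, SE, adjusted p = 2.59e-07, edgeR's quasi-likelihood test with Benjamini-Hochberg adjustment), as Il17rd, a membrane inhibitor of FGF receptors, was too (medians 6.26, 13.8 and 20.4 CPM; −1.25 ± 0.24).

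Sprouty genes encode inhibitors of signalling downstream of the receptor, and Spry1 and Spry4 were highest in NG2-dsRed+ cells. Spry1 was at 17.7, 32.6 and 81.6 CPM in PSCs, 15.9, 28.5 and 76.9 CPM in S100β-GFP+ cells and 146, 189 and 218 CPM in NG2-dsRed+ cells, where it did not overlap with either. Spry4 was at medians of 56.6, 16.3 and 148 CPM in PSC, S100β-GFP+ and NG2-dsRed+ libraries, and Spry2 at 92.4, 44.3 and 86.6 CPM. For Spry4 each NG2-dsRed+ library was above each S100β-GFP+ library and 9 of 10 were above each PSC library. The log2 fold changes of S100β-GFP+ minus NG2-dsRed+ cells were −2.34 ± 0.30 for Spry1 (SE, adjusted p = 3.54e-07), −0.81 ± 0.20 for Spry2 (adjusted p = 0.00158) and −3.06 ± 0.32 for Spry4 (adjusted p = 1.06e-08, edgeR's quasi-likelihood test with Benjamini-Hochberg adjustment). Without libraries 14, 17 and 22 the folds were 8.29 in place of 5.05 for Spry1 and 13.4 in place of 8.32 for Spry4, which was 12.6 with limma-voom. The related Spred genes were at medians of 115.6, 57.5 and 78.9 CPM for Spred1, 28.0, 16.3 and 48.0 CPM for Spred2 and 2.82, 2.36 and 3.23 CPM for Spred3, with Spred2 past the threshold in all 3 comparisons and Spred3 in none. The Spred1 call between S100β-GFP+ and NG2-dsRed+ cells was lost without any 1 of 19 libraries (log2 fold change from −0.45 to −0.32 over all such fits) and in 4 of 8 other settings. The Spred2 call between PSCs and S100β-GFP+ cells was lost without any 1 of 8 libraries (log2 fold change from 0.54 to 0.93 over all such fits) and with only these cell types in the fit. That between PSCs and NG2-dsRed+ cells was lost without any 1 of 6 libraries (−0.74 to −0.51) and with the term for Gm15564, Gm23935 and Lars2. Spry3, the gene not tested, had 16 to 23 counts per cell type.

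All 10 listed adaptors of FGF receptors were tested. In PSCs 1 was higher and 4 were lower relative to S100β-GFP+ cells (22.9% and 24.1% of all tested genes), and 0 and 4 relative to NG2-dsRed+ cells (20.9% and 23.1%). In S100β-GFP+ cells 1 was higher and 3 were lower relative to NG2-dsRed+ cells (18.1% and 15.2%), and no adaptor was higher in PSCs than in NG2-dsRed+ cells at an unadjusted p under 0.05 in this fit either. With the term for Gm15564, Gm23935 and Lars2, Gab1 was higher there (log2 fold change 0.57, against 0.27). Shc1, an adaptor that recruits Grb2, was at 13.3, 18.7 and 23.5 CPM in PSCs, 36.4, 43.2 and 57.1 CPM in S100β-GFP+ cells and 49.4, 57.1 and 70.5 CPM in NG2-dsRed+ cells, and PSCs did not overlap with either. Gab1, a docking protein for PI3 kinase, had medians of 88.6, 34.8 and 87.6 CPM in PSC, S100β-GFP+ and NG2-dsRed+ libraries, and Grb2 36.8, 81.4 and 44.1 CPM. Plcg1, the phospholipase bound by active FGF receptors, had medians of 18.6, 29.8 and 73.9 CPM, and the ubiquitin ligase Cbl 57.4, 82.4 and 71.3 CPM. The lower Plcg1 of PSCs against S100β-GFP+ cells (log2 fold change −0.74 ± 0.28, SE) and the lower Cbl against NG2-dsRed+ cells (−0.36 ± 0.15) were lost without any 1 of 8 and of 17 libraries, with values between −0.86 and −0.48 and between −0.41 and −0.20. Among 8 other settings the Plcg1 call was lost in 4, with a reversed sign in 1 of these, and the Cbl call in 7.

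Of 15 genes that build or edit heparan sulfate, the co-receptor of the members, 13 were tested. PSCs were higher in 4 and lower in 6 relative to S100β-GFP+ cells (22.9% and 24.1% of all tested genes) and higher in 4 and lower in 5 relative to NG2-dsRed+ cells (20.9% and 23.1%), and S100β-GFP+ cells were higher in 5 and lower in 3 relative to NG2-dsRed+ cells (18.1% and 15.2%). Sulf1, a sulfatase that removes sulfate groups needed for FGF binding, was at 1.93, 10.3 and 14.6 CPM in PSCs, 72.9, 121 and 206 CPM in S100β-GFP+ cells and 31.5, 61.9 and 128 CPM in NG2-dsRed+ cells. Hs2st1, a sulfotransferase that adds sulfate to the chain, was at 74.5, 89.3 and 116.9 CPM in PSCs, 25.4, 28.7 and 33.7 CPM in S100β-GFP+ cells and 33.4, 39.5 and 47.5 CPM in NG2-dsRed+ cells. PSCs were thus separated from both other cell types in opposite directions, low for Sulf1 and high for Hs2st1. PSCs minus S100β-GFP+ cells gave −3.60 ± 0.32 for Sulf1 (SE, adjusted p = 1.32e-10) and 1.66 ± 0.11 for Hs2st1 (adjusted p = 8.83e-13, edgeR's quasi-likelihood test with Benjamini-Hochberg adjustment). The chain polymerases Ext1 and Ext2 had medians of 54.2, 128 and 66.6 CPM and of 89.4, 55.7 and 64.5 CPM in PSC, S100β-GFP+ and NG2-dsRed+ libraries, and the sulfotransferase Ndst1 80.8, 57.0 and 56.0 CPM. The higher level in PSCs against NG2-dsRed+ cells was lost for Ext2 without PSC library 6 or NG2-dsRed+ library 21 or 26 (0.33 to 0.49 over all fits without 1 library), without a filter and with limma-voom, and for Ndst1 without PSC library 6 or 23 (0.42 to 0.63) and without a filter. Against S100β-GFP+ cells that of Ndst1 was lost without any 1 of 5 libraries (0.43 to 0.65) and with only these cell types in the fit.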

How the data were processed

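The counts of reads per gene were made by the authors, with ea-utils and Btrim for trimming, HISAT2 for alignment to GRCm38 and HTSeq for counting, and they were used as deposited. Versions, annotation and strand setting were not given in the sources used here. The table holds 27 of 36 labelled libraries, 12 per cell type having been sequenced. It has 8 S100β-GFP+ libraries where the study kept 7, and all 8 were used here.

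Gene ids were matched to GENCODE M21 (52489 of 52636, 99.72%). Genes were kept by filterByExpr with a minimum count of 10 (15330 genes) and normalized by TMM. The 3 cell types entered 1 edgeR 4.0.16 quasi-likelihood fit in R 4.3.3, with Benjamini-Hochberg adjustment and a threshold of 0.05. Log2 CPM used a prior count of 2. Median library totals were 7487157 (PSCs), 7449900 (S100β-GFP+) and 6869645 (NG2-dsRed+). No pair of libraries of the same cell type was identical, and the smallest chi-squared per degree of freedom between them was 5.678. Levels per length use the union of exons.

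The members and the lists of genes were chosen with earlier results of these data known. Named are the members, S100b and Cspg4, all tested feedback and target genes, and up to 5 genes per other list that passed the threshold in 1 direction against each of the other groups, highest mean first. Lists of 5 or fewer, the most abundant marker per list, the 3 protein-coding genes most correlated with each tested member, overlapping genes, and Lars2, Gm23935 and Gm15564 are named too, except that some results were left out because they need withheld items.

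Alternatives were DESeq2 1.42.0, its size factors in edgeR, no filter, a filter on a mean count of 5 in 1 cell type, only the cell types compared, limma-voom (limma 3.58.1) with sample weights, and each library left out. Leaving out S100β-GFP+ libraries 14, 17 and 22 together and a term for Lars2, Gm23935 and Gm15564 were added after the data were seen. The fit was tested on simulated data.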

Additional observations from a re-analysis of the deposited data

Results flagged for a closer look

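A test for a single outlying library was applied to each member in each cell type, 30 groups in all, and marked 2 of them, where chance alone marks about 1 in 20. Fgfr2 in NG2-dsRed+ library 2 was at 0.284 CPM (2 counts), with the nearest library of that cell type at 2.01 CPM. Fgfr3 in PSC library 31 was at 23.5 CPM (164 counts), with the nearest PSC library at 2.61 CPM.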

How the results depend on the processing

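For PSCs against S100β-GFP+ cells, 7198 genes differed (6825 to 7918 with 1 library left out) and 16556 without a filter on low counts, most of them lower, where the median log2 fold change of all genes was −0.97. For S100β-GFP+ against NG2-dsRed+ cells, 5099 differed (4617 to 5940) and 10586 without the filter, most of them higher, with a median of 0.78. PSCs and NG2-dsRed+ cells differed in 6743 genes (6315 to 7412). The number of members that differed was 7 (7 to 8), 5 (5 to 6) and 8 (7 to 8) in the same order. It was 8 with limma-voom for S100β-GFP+ against NG2-dsRed+ cells, and 5 of 7 tested with only the 2 cell types compared for PSCs against NG2-dsRed+ cells. Log2 fold changes changed sign as follows, and the cause was not tested. For PSCs minus S100β-GFP+ cells, Fgfr3 was 1.45 without libraries 14, 17 and 22 and 0.53 with the term for Lars2, Gm23935 and Gm15564 (−2.23 to 0.21 with 1 library left out), Fgfr4 was 0.58 with limma-voom, 0.88 without the 3 libraries and 0.44 with the term (−0.45 to 0.089), and Plcg1 was 0.051 without the 3 libraries. For PSCs minus NG2-dsRed+ cells, Spred3 was −0.43 with limma-voom (−0.10 to 0.28), Etv4 was 0.0018 with the term (−0.28 to 0.074), and Cspg4 ranged from −0.019 to 0.16. For S100β-GFP+ minus NG2-dsRed+ cells, Ndst1 was 0.051 with DESeq2, 0.052 with its size factors and 0.0050 with only the 2 cell types (−0.15 to 0.077), and Fgf9 ranged from −0.53 to 0.038. No paired analysis was possible because no label links libraries of different cell types to 1 mouse.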
